A study of Homo sapiens with 6 samples.

Results

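The 77 genes described here encode the proteins of the cytosolic ribosome, 31 of the small 40S subunit and 46 of the large 60S subunit. They were taken by symbol from the 14168 genes of the deposited table: RPL or RPS with a number, plus RPSA and the stalk genes RPLP0, RPLP1 and RPLP2, without S6 kinases, pseudogenes and the diverged paralogues. The rule uses symbols and no measured value. The RNA came from BJ cells, an established line of human fibroblasts given as wild type and grown in RPMI with serum. Polyadenylated RNA was sequenced from 3 libraries of cells given a control siRNA (siControl 1 to 3) and 3 of cells given an siRNA against agrin (siAgrin 1 to 3). Agrin is a matrix protein that carries heparan sulfate chains and lies in basement membranes. All 6 libraries come from this 1 cell line, and whether replicates are separate cultures is not stated, and p-values therefore cover only the spread of these libraries, which may be technical. No siRNA sequence, dose or time after transfection is stated in the sources used here.

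A ribosome carries 1 copy of nearly each of these proteins, bound to the ribosomal RNAs. The small subunit decodes the messenger RNA, and the large subunit joins the amino acids and holds the exit tunnel for the new chain. The acidic stalk proteins of the large subunit occur in several copies and recruit elongation factors. Ribosomal protein messages are among the most abundant of a growing cell. Their transcripts begin with a cytosine followed by a run of pyrimidines, the terminal oligopyrimidine motif, through which LARP1 and the mTORC1 kinase control their translation and stability together. Haploinsufficiency of several members, RPS19 among them, causes Diamond-Blackfan anaemia.

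The sequences at the annotated start sites mostly show such a pyrimidine run. RefSeq promoter entries on GRCh38.p14 matched 62 of the 77 genes. The windows below run from 10 bases before the annotated start to 20 bases from it, on the strand of the gene, and are given for 4 members that were lower and the 4 that were higher with the agrin siRNA. Capitals mark the longest run of C or T that comes within 5 bases of the annotated start. Where a gene had several entries, the one with the longest run is shown, and counts per gene also take the longest run.
RPL14: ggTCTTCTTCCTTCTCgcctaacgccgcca
RPLP0: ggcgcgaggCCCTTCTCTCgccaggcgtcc
RPS6: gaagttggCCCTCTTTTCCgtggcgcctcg
RPSA: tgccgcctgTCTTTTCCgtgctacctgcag
RPS19: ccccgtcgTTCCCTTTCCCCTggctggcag
RPS28: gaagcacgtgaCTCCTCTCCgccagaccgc
RPS21: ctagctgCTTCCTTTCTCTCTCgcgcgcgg
RPS26: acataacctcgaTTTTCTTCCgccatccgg

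These windows lie at chr3:40457329-40457358 (plus strand, RPL14), chr12:120201092-120201121 (minus strand, RPLP0), chr9:19380217-19380246 (minus strand, RPS6) and chr3:39406710-39406739 (plus strand, RPSA). Those of the higher members lie at chr19:41860245-41860274 (RPS19), chr19:8321486-8321515 (RPS28), chr20:62387093-62387122 (RPS21) and chr12:56041908-56041937 (RPS26), each on the plus strand. A run of at least 8 C or T on the gene's strand that comes within 5 bases of the annotated start was present in 51 of the 62 genes (82.3%), in 20 of 24 of the 40S and 31 of 38 of the 60S, against 14.1% of the 27305 genes of the promoter table. RPL3, which was lower, has a run of 5 in its window (chr22:39319604-39319633, minus strand).
RPL3: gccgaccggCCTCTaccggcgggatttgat
A run of at least 8 was present in the 4 higher members, in 7 of the 9 lower members with an entry (all but RPL3 and RPS3A, whose run is 7 bases) and in 40 of the 49 others with an entry.

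The libraries held 42736368 to 48246613 reads on listed genes, of which 1495464 to 1572187 fell on the 77 members. Levels are given as scaled CPM, the deposited CPM values (read counts divided by the authors' own library size), and 3 reads correspond to 0.0681 to 0.0761. The targeted gene AGRN was at 744, 804 and 790 in the control libraries and at 290, 297 and 265 in the agrin siRNA libraries. That is 779 ± 31.6 against 284 ± 16.6 (SD, n = 3 each), a fall of 63.6% (log2 fold change -1.46, SE 0.05, limma adjusted p = 3.19e-06; exact permutation p = 0.1, the smallest that 3 against 3 allows). The 8 fibroblast markers were listed and abundant, with a summed level of 50365 to 53136 in the control and 48217 to 50514 in the agrin siRNA libraries. Of these 8, 3 were lower in limma (37.5%, beside 13.5% of all tested genes) and none was higher (beside 15.2%). Their log2 fold changes ran from -0.36 to 0.16. Of 5 leukocyte markers, CD68 and CD14 are listed and were higher, with a sum of 125 to 143 against 261 to 269, and the endothelial marker CDH5 is listed at 0 in all 6 libraries. Of 5 epithelial markers KRT8 and KRT19 were lower, with a sum over the list of 255 to 264 against 232 to 249, and EPCAM lay between 0.530 and 0.754. The part of these markers in the results was not tested.

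The ribosomal protein genes moved little with the agrin siRNA. All 77 passed the filter on low values and entered the test of 13206 genes. In limma, with Benjamini-Hochberg adjustment over all of them and a threshold of 0.05, 4 members were higher and 11 lower, and 62 did not pass. That is 19.5% of the members, beside 28.7% of all tested genes. By direction the shares were 5.19% higher and 14.3% lower, beside 15.2% higher and 13.5% lower of all tested genes. The median log2 fold change was -0.03 for the members and -0.00 for all tested genes. Member values lay between -0.18 for RPL14 and 0.22 for RPS19, with 51 below 0 and 26 above. Changes of a member by more than 1.2-fold either way lay outside the 95% interval for 71 of 77 (92.2%), against 49.8% of all tested genes. Among the 6325 other genes with a mean level in the range spanned by the members, 34.5% were called and the median absolute log2 fold change was 0.11, beside 0.06 for the members. Coefficients of variation within a group were about alike, with medians of 3.00% for the members and 2.65% for those genes in the controls, and 4.94% and 4.61% in the agrin siRNA libraries. In bulk RNA, fewer cells of a type and less RNA per cell cannot be told apart, and each value is relative to the rest of the library.

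**Figure D1:**
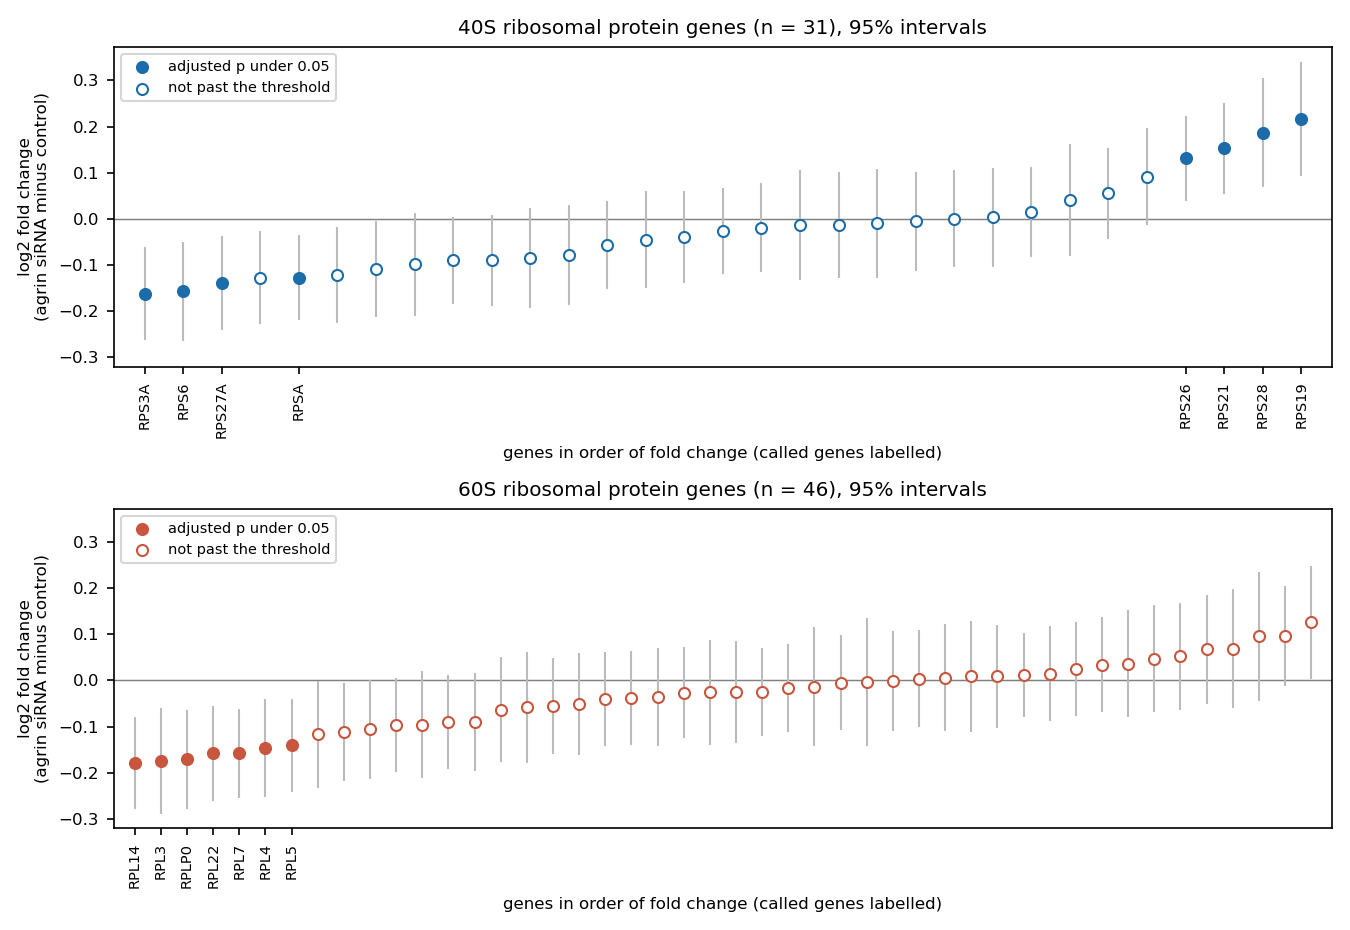
Log2 fold change (agrin siRNA minus control, on log2(scaled CPM + 0.5)) of each of the 77 ribosomal protein genes, by subunit, with bars for the 95% interval and filled points, labelled by gene, for those past the threshold. The values run from -0.18 (RPL14) to 0.22 (RPS19), and the 4 genes called higher are 40S members.

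In the 60S subunit 7 of 46 genes were lower in limma (15.2%, beside 13.5% of all tested genes). None was higher, beside 15.2% of all tested genes. Of the 46, 10 had an unadjusted limma p under 0.05, beside 5372 of all 13206 tested genes. On the recovered reads edgeR and DESeq2 also called none higher. RPL3, which lies near the centre where peptide bonds form, took the most reads of the 7, uncorrected for length. It was at 1563, 1577 and 1449 scaled CPM in the controls and at 1396, 1322 and 1346 with the agrin siRNA (log2 fold change -0.17, SE 0.05, adjusted p = 0.0297). RPL4, whose extension lines the exit tunnel, was at 1251, 1268 and 1179 against 1146, 1099 and 1094 (-0.15, SE 0.05, adjusted p = 0.0436). In both genes the agrin siRNA libraries lie below the lowest control, which is siControl 3.

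RPL14 had the most negative log2 fold change of the members. Its levels were 322, 335 and 313 in the controls and 299, 276 and 282 with the agrin siRNA, a fall of 11.6% (-0.18, SE 0.04, adjusted p = 0.0159). RPL7 went from 400, 408 and 385 to 371, 356 and 344 (-0.16, SE 0.04, adjusted p = 0.0233). RPL22, an RNA-binding member that mice can live without and that restrains its paralogue RPL22L1 in mouse cells, was at 141, 143 and 135 against 132, 121 and 121 (-0.16, SE 0.05, adjusted p = 0.0303). The groups do not overlap for these 3 genes, and siAgrin 1 is the highest of the agrin siRNA libraries in each.

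RPLP0 anchors the stalk on the ribosome, and the acidic proteins RPLP1 and RPLP2 attach to it as dimers. RPLP0 was at 841, 879 and 793 in the controls and at 756, 740 and 735 with the agrin siRNA (-0.17, SE 0.05, adjusted p = 0.0246). The acidic partners did not pass: RPLP1 had a log2 fold change of -0.06 (95% interval -0.18 to 0.06, adjusted p = 0.449) and RPLP2 of 0.07 (-0.05 to 0.19, adjusted p = 0.367), and their groups overlap. Whether the 3 stalk genes differ from each other in fold change was not tested.

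RPL5 and RPL11 bind the 5S ribosomal RNA together and, when ribosome assembly fails, hold MDM2 away from p53. RPL5 was at 704, 694 and 662 in the controls and at 650, 609 and 611 with the agrin siRNA (-0.14, SE 0.04, adjusted p = 0.0429). RPL11 was at 673, 697 and 653 against 685, 640 and 644 (-0.04, 95% interval -0.14 to 0.06, adjusted p = 0.558), with overlapping groups. Only RPL5 of the pair passed the test, and the difference between them was not tested. RPL13A, among the 3 members of the 60S with the most reads, had -0.10 (adjusted p = 0.197), and RPL39, the one with the fewest, was at 30.2 ± 1.04 against 30.2 ± 2.36 (SD, n = 3 each; adjusted p = 0.978).

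In the 40S subunit 4 of 31 genes were lower and 4 higher, 12.9% each. Of all tested genes 13.5% were lower and 15.2% higher. RPS6, the substrate of the S6 kinases, was at 926, 951 and 880 in the controls and at 858, 818 and 797 with the agrin siRNA (-0.16, SE 0.05, adjusted p = 0.0364). RPSA, also known as the laminin receptor precursor and needed for small subunit assembly, was at 427, 448 and 415 against 398, 397 and 386 (-0.13, SE 0.04, adjusted p = 0.0459). RPS27A, made as a fusion behind ubiquitin, was at 552, 572 and 540 against 527, 500 and 483 (-0.14, SE 0.05, adjusted p = 0.0455). RPS3A, a member of the subunit's platform, was at 262, 260 and 247 against 241, 224 and 221 (-0.16, SE 0.04, adjusted p = 0.0248). For these 4 genes the highest agrin siRNA library lies below the lowest control, by 8.46% to 10.6% between the group means.

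RPS19, which is required for maturation of the 18S ribosomal RNA, had the most positive log2 fold change of the members. It was at 724, 740 and 699 in the controls and at 904, 790 and 825 with the agrin siRNA, or 721 ± 20.3 against 840 ± 58.5 (SD, n = 3 each; 16.4% higher, log2 fold change 0.22, SE 0.05, adjusted p = 0.0167). RPS28, a small protein of the head of the subunit, was at 163, 173 and 161 against 204, 183 and 181 (0.19, SE 0.05, adjusted p = 0.0265). RPS21 was at 151, 152 and 149 against 178, 164 and 161 (0.15, SE 0.04, adjusted p = 0.0278). RPS26, which lies at the mRNA exit channel, was at 43.6, 45.4 and 44.6 against 49.3, 47.8 and 49.3 (0.13, SE 0.04, adjusted p = 0.0388). The groups do not overlap for any of the 4, and siAgrin 1 is the highest of the 6 libraries for RPS19, RPS28 and RPS21.

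**Figure D2:**
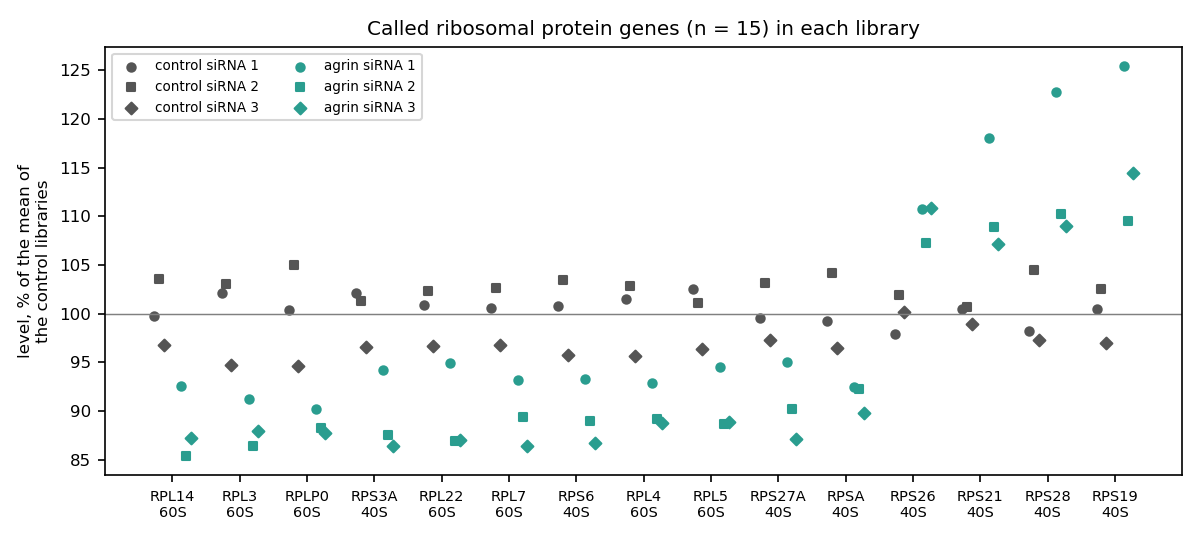
Level of each of the 15 called ribosomal protein genes in each library, as a percentage of the mean of the 3 control libraries, with 1 point per library and its shape for the replicate. The agrin siRNA points lie above the control points for RPS19, RPS28, RPS21 and RPS26 and below them for the other 11, with siAgrin 1 above siAgrin 2 and 3 for each gene but RPS26.

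RPS18, among the 3 members of the 40S with the most reads, was at 886, 901 and 863 against 929, 856 and 867 (0.00, adjusted p = 0.993). RPS4X, at -0.13, had an adjusted p of 0.0592. Over all members the 2 groups did not overlap for 18 of 77, beside 45.2% of all tested genes. They were the 15 called genes plus RPS15 (0.09), RPL10 (-0.11) and RPS4X. By direction, the agrin siRNA libraries lay above the controls in 5 members and below in 13. Among the 13206 tested genes these counts were 3131 and 2838. Every one of the 5 members with the agrin siRNA libraries on top encodes a 40S protein, and whether the subunits differ in their calls was not tested.

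Members were also divided by whether the protein has a bacterial counterpart. Of the 33 universal members 6 were lower and none was higher in limma: RPSA among 15 of the 40S, and 5 of 18 of the 60S. An unadjusted limma p under 0.05 was found for 10 of the 33, beside 5372 of all 13206 tested genes. The acidic stalk proteins RPLP1 and RPLP2 were left out of this division. Of the 42 members shared by eukaryotes and archaea or particular to eukaryotes, 5 were lower and 4 higher, the latter being the 4 higher 40S genes among 16. The medians were -0.06 and -0.01. The shares lower were 18.2% and 11.9%, beside 13.5% of all tested genes. The shares higher were 0% and 9.52%, beside 15.2% of all tested genes, and the classes were not tested against each other.

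The calls depend on single libraries, and none of the 15 changed sign in any alternative tried. Without siControl 1 none of the 15 remained (adjusted p 0.0641 to 0.175), and without siControl 2 only RPS19 and RPS28 did. Without siAgrin 3 only RPS19, RPS21 and RPS28 remained, and without siControl 3 the remaining 8 were lower ones. Without siAgrin 1 or siAgrin 2, 14 and 15 remained. Of all tested genes 15.7% were called without siControl 1, 17.6% without siControl 2, 19.9% without siControl 3, 28.7% without siAgrin 1, 38.9% without siAgrin 2 and 18% without siAgrin 3. With all libraries, the other fits whose member counts are given called 28.2% of all genes (quantile scaling), 28.5% (scaled without ribosomal protein genes), 29% (without mitochondrial and top 10 genes), 25.1% (no variance trend), 62.6% (array weights), 27.9% (replicate block), 28.3% (edgeR) and 26% (DESeq2).

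Summed over the 77 members, the level was 37802, 38698 and 36360 scaled CPM in the control libraries and 38266, 35241 and 35699 in the agrin siRNA libraries, or 37620 ± 1180 against 36402 ± 1630 (SD, n = 3 each). The difference of -3.24% is less than the spread between libraries, and siAgrin 1 lies between siControl 1 and siControl 2. Members took 3.48%, 3.57% and 3.39% of the reads in the controls and 3.50%, 3.21% and 3.26% with the agrin siRNA. The 40S sum went from 14304 ± 434 to 13938 ± 611 and the 60S sum from 23316 ± 747 to 22464 ± 1023.

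**Figure D3:**
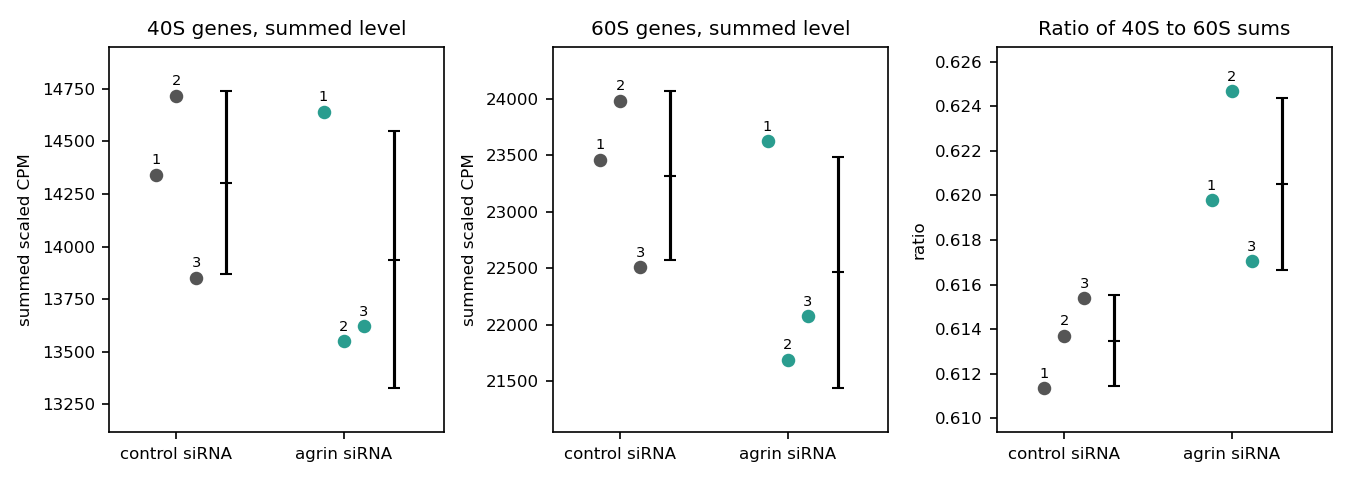
Summed level of the 40S and of the 60S genes (scaled CPM) and the ratio of the sums in each of the 6 libraries, numbered by replicate, with bars for the mean ± SD (axes do not start at 0). The sums of the groups overlap, with siAgrin 1 among the controls, while the ratio is 0.611 to 0.615 in the controls and 0.617 to 0.625 with the agrin siRNA.

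The ratio of the 40S to the 60S sum was 0.611, 0.614 and 0.615 in the controls and 0.620, 0.625 and 0.617 with the agrin siRNA, so the groups do not overlap (0.613 ± 0.00202 against 0.620 ± 0.00386; SD, n = 3 each). The separation is narrow and was not kept when RPS19 was left out. Without RPS19 the ratio was 0.580, 0.583 and 0.584 against 0.582, 0.588 and 0.580, and the groups overlap. That gene was chosen after its value was seen. Whether leaving out another member would do the same was not tested. The median log2 fold changes of the subunits were -0.03 and -0.03.

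The members moved together from library to library within a group. In siControl 2 the level was the highest of the controls for 70 of 77 members, beside 34.8% of all tested genes. In siControl 3 it was the lowest for 71, and the share of all tested genes that were lowest there was not worked out. In siAgrin 1 it was the highest of the agrin siRNA libraries for 75 of 77, where 38.7% of all tested genes had their highest there. The median over members, as log2 relative to the control mean, was 0.01, 0.04 and -0.04 in the controls and 0.05, -0.07 and -0.06 with the agrin siRNA. The range among the 3 agrin siRNA libraries is thus wider than the -0.03 between the groups.

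Fold changes ran with the length of the coding sequence. Members code for 25 (RPL41) to 427 residues (RPL4), and 9 with a coding sequence under 300 bases had a median log2 fold change of 0.05, with 2 higher and none lower. The 46 from 300 up to 600 bases had a median of -0.01, with 2 higher and 2 lower, and the 22 of 600 bases or more had -0.11, with none higher and 9 lower. These bounds were set with the values known. The other tested genes ran the same way: 30.3% of those under 300 bases were higher and 6.62% lower, against 14.3% and 14.8% of those of 600 bases or more. Across the 77 members Spearman's rho between log2 fold change and coding length was -0.62 (Pearson's r -0.62), and it was -0.62 in each subunit, while across 12142 tested genes it was -0.16. With the GC content of the coding sequence rho was 0.37 across members and 0.23 across all. These are descriptions across genes of the same 6 libraries, which are not independent.

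**Figure D4:**
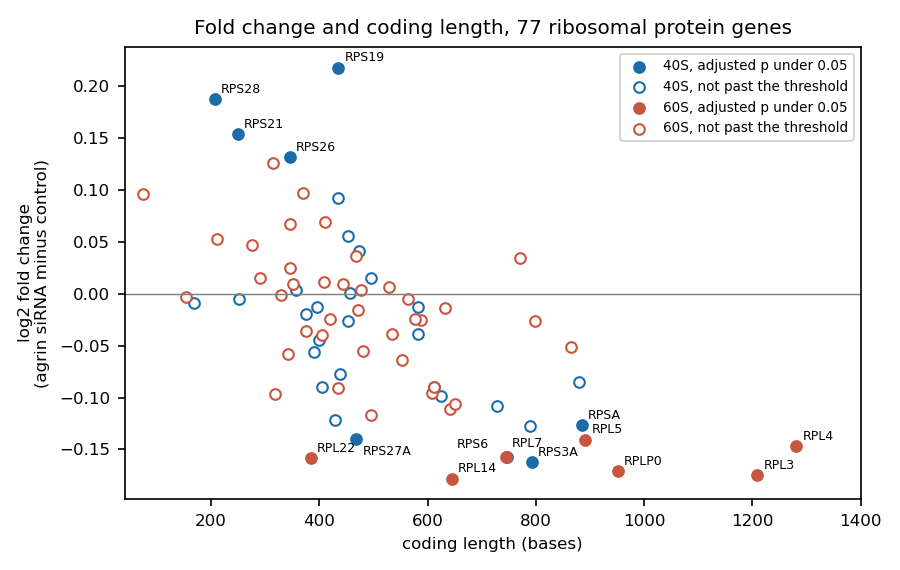
Log2 fold change of each of the 77 members against the length of its coding sequence in bases, coloured by subunit and with filled points for genes past the threshold. The 4 genes called higher are under 600 bases long, and 9 of the 11 called lower are 600 bases or longer.

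Each control was also set against the mean of the other controls, and each agrin siRNA library against the mean of all controls. Across members, rho with coding length was then 0.24, 0.20 and -0.42 in siControl 1 to 3 and -0.66, -0.52 and -0.58 in siAgrin 1 to 3. Across the 12142 tested genes it was 0.11, -0.11 and 0.01 in siControl 1 to 3 and -0.27, -0.01 and -0.12 in siAgrin 1 to 3. With a trend on GC content and length over all genes removed from each library, an alternative added after the relation was seen, 1 member was called higher (RPS19, 0.15) and 19 lower, beside 32.6% of 12142 genes called. The log2 fold changes were then 0.06 for RPS28, 0.08 for RPS21 and 0.07 for RPS26, none past the threshold. Of the 11 lower genes 8 remained. RPL4 (-0.12), RPL5 (-0.11) and RPS3A (-0.14) did not pass. What gave this relation was not tested.

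Levels between members depend on the length of the message, of which only the coding part was used here. Reads can also fall on the untranslated parts, which weigh most where the coding sequence is short. The order of the members given here is therefore rough. Per kilobase of coding sequence, averaged over the 6 libraries, the median member was at 903 scaled CPM, with 872 for the 40S and 919 for the 60S. RPL37A (2153), RPS18 (1938) and RPL13A (1857) were highest, and RPS26 (135), RPL39 (197), RPS3A (306) and RPL22 (344) lowest. Near-identical copies limit these levels: GENCODE 29 annotates 1133 processed or other pseudogenes of 76 of the 77 members, and reads that fit several copies could be lost or split in counting. Another listed gene overlaps 38 of the members, and the strand setting of the counting is not stated.

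Some ribosomal proteins have a diverged paralogue that can take their place. Of 6 tested paralogues 3 were higher (50%, beside 15.2% of all tested genes) and none was lower (beside 13.5%). RPS27L, a known p53 target, was at 203, 208 and 194 in the controls and at 249, 238 and 233 with the agrin siRNA (0.25, SE 0.04, adjusted p = 0.00224), and it stayed past the 0.05 threshold in each alternative. RPL26L1 was at 15.4, 14.7 and 15.5 against 17.9, 18.1 and 17.8 (0.23, SE 0.05, adjusted p = 0.00978), a call lost without siControl 2. RPL36AL was at 119, 121 and 120 against 140, 125 and 133 (0.14, SE 0.05, adjusted p = 0.0437), a call lost without any 1 library other than siAgrin 2, and in edgeR and DESeq2. RPL22L1 (-0.05, adjusted p = 0.455), RPL7L1 (-0.05, adjusted p = 0.373) and RPL39L (-0.02, adjusted p = 0.882) did not pass. FAU, which yields a ribosomal protein from a fusion with a ubiquitin-like protein (0.05, adjusted p = 0.366), and RACK1, a scaffold bound to the 40S head (-0.10, adjusted p = 0.152), did not pass either.

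Translation factors and other genes whose messages also begin with the pyrimidine motif were described as a list. Of 16 tested, 5 were lower (31.2%, beside 13.5% of all tested genes) and none was higher (beside 15.2%). Their median was -0.11, beside -0.03 for all 77 members and -0.11 for the 22 members with a coding sequence of 600 bases or more. The list was not tested against the members, and the coding lengths of its genes are not given here. EIF2S3, the gamma subunit of the factor that brings initiator tRNA, was at 150, 152 and 140 in the controls and at 116, 127 and 111 with the agrin siRNA (-0.32, SE 0.06, adjusted p = 0.00267). EIF4B, a cofactor of the eIF4A helicase, was at 380, 378 and 346 against 315, 308 and 313 (-0.24, SE 0.04, adjusted p = 0.00413). Their libraries do not overlap. The count of lower genes in this list lay between 2 and 7 when 1 library was left out.

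Host genes of small nucleolar RNAs belong to the same translational class. Of 17 tested, 3 were lower (17.6%, beside 13.5% of all tested genes) and none was higher (beside 15.2%), with a median of -0.13. C6orf48 was at 196, 195 and 188 against 169, 143 and 160 (-0.30, SE 0.06, adjusted p = 0.0049). GAS5 had -0.23 (adjusted p = 0.0471) with overlapping groups. That call was lost without siControl 1, 2 or 3, siAgrin 2 or siAgrin 3. With 1 library left out the list held 1 to 7 lower and 0 to 2 higher genes.

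Genes that make ribosomal RNA and assemble the subunits went either way. Of all tested genes 15.2% were higher and 13.5% lower. In the lists of this paragraph, in order, the shares higher were 0%, 9.09%, 2.78%, 8% and 10.5%. The shares lower were 14.3%, 9.09%, 5.56%, 10% and 15.8%. Of 14 subunits and factors of RNA polymerase I 2 were lower, POLR1E (-0.32, adjusted p = 0.0111) and POLR1D (-0.16, adjusted p = 0.0232), and neither call held without siControl 1, nor that of POLR1D without siControl 2 or siAgrin 3. Of 11 nucleolar and small nucleolar RNP proteins NOP10 was higher (0.25, adjusted p = 0.00466) and NCL, nucleolin, was lower (-0.17, adjusted p = 0.0105; not past without siAgrin 3). Of 36 genes of 40S assembly 1 was higher and 2 were lower, UTP14A (-0.26, adjusted p = 0.0131) and UTP15 (-0.22, adjusted p = 0.0227), both lost without siControl 1, UTP14A also without siControl 2 or siAgrin 3 and UTP15 without siControl 3. With 1 library left out the 40S list held 0 to 6 lower and 0 to 2 higher genes. Of 50 genes of 60S assembly 4 were higher and 5 lower (1 to 4 and 2 to 8 with 1 library left out). EFL1, the GTPase that helps release eIF6 from the 60S subunit, was at 28.3, 28.2 and 28.3 against 34.5, 34.0 and 38.0 (0.32, SE 0.05, adjusted p = 0.00197), and RSL24D1 was at 102, 102 and 93.6 against 86.1, 78.3 and 78.7 (-0.29, SE 0.05, adjusted p = 0.00337). Of 19 genes of mTORC1 and its control of pyrimidine motif messages 2 were higher and 3 lower (1 to 4 each with 1 library left out). SESN1, an inhibitor of mTORC1 and a p53 target, was at 34.2, 34.6 and 32.3 against 44.3, 43.8 and 40.7 (0.34, SE 0.05, adjusted p = 0.00125). EIF4EBP1, the repressor that mTORC1 phosphorylates, had -0.27 (adjusted p = 0.0161), a call lost without siControl 1, siControl 2 or siAgrin 3.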

How the data were processed

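Per the labels' protocols, stranded mRNA libraries (TruSeq) were prepared from kit-isolated total RNA. The submitters' processing notes name STAR 2.6.1d, SAMtools, HTSeq, edgeR and build hg38. The annotation, strand setting and normalization factors are not stated in the sources used here. Deposited was a normalized expression signal for each library, a scaled CPM made by the authors, for 14168 genes. The design had assumed plain CPM, and the same test was kept. Each column is whole multiples of 1 step, so reads per gene could be recovered (100% of values whole, tolerance 0.01 of a read).

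Genes at 1 or more in at least 3 libraries (13206) were tested in limma 3.58.1 (R 4.3.3) on the scale log2(value + 0.5), with a variance trend, all 6 libraries and no covariate, two-sided, with Benjamini-Hochberg adjustment and called under 0.05. Fold changes on this scale understate those of low genes. edgeR 4.0.16 on the recovered reads called 1844 genes higher and 1887 lower. Other alternatives were DESeq2 1.42.0, pseudocounts, filters, scalings, limma settings, a replicate block, and leaving out each library. The test was also checked on simulated reads. It recovered 48% of 50 changes of 1.2-fold, 98% of 50 of 1.5-fold, 96% of 50 of 2-fold and 100% of 50 of 3-fold. Of its 180 calls 9 were false. The largest rise of a member between group means, 16.4% for RPS19, is under 1.2-fold, a size at which many changes would be missed. Replicates differed by more than sampling noise, with chi-square values of 4.41 to 24.8 per degree of freedom. The same-numbered libraries' deviations correlated at -0.04, 0.17 and 0.20, so the numbers were not taken to pair them.

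The members, the gene lists and the naming rule were chosen with earlier results of these data known. The rule took AGRN, all called members, the 3 most abundant and the lowest member per subunit, the stalk and 5S genes, RPS6, RPSA, all paralogues, FAU, RACK1 and up to 2 called genes with the largest change per list. A few genes under the rule are not reported here. RPS4X, RPS15, RPL10, RPL41 and RPL37A and the pseudogenes were named after their values were seen. Coding lengths, GC content, overlaps and pseudogenes came from GENCODE 29 on GRCh38, and promoter windows from RefSeq. Plots used Python 3.11.15 with matplotlib 3.10.9.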

Additional observations from a re-analysis of the deposited data

How the results depend on the processing

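The direction of the 15 called members held in each alternative, and AGRN stayed between -1.54 and -1.41. Of the 4 members called higher, 2 were left when values were scaled without ribosomal protein genes or without mitochondrial and top 10 genes, 1 with limma without trend, 1 with the GC and length trend removed and 0 at an adjusted p under 0.01, and the 40S counts were the same 2, 2, 1, 1 and 0. Members called lower numbered 17 after quantile scaling, 3 without trend, 19 with the GC and length trend removed and 0 at 0.01. For the 40S these were 7, 0, 8 and 0, and for the 60S 3 without trend, 11 with the trend on GC and length removed and 0 at 0.01. Array weights, whose fit stopped before it converged, gave 36 lower members (15 of the 40S, 21 of the 60S), 1 higher 60S gene, and 4114 higher and 4152 lower of all genes. With FAU and RPL36AL among genes added, 1 gene of the 60S was higher. Without RPS19 the difference of the subunit ratio was 0.000583. Same-numbered libraries were not shown to be paired. A replicate block gave 3 higher and 8 lower members, with 2 lower 40S genes, and 1905 higher and 1775 lower of all genes, and of the agrin siRNA libraries siAgrin 3 correlated best with its own number (0.20), siAgrin 2 also (0.17), and siAgrin 1 did not (-0.04). When 1 library was left out, the members called higher ranged from 0 to 6 and lower from 0 to 19, with a median of -0.07 to -0.00. For the 40S these were 0 to 5, 0 to 10 and -0.07 to -0.01, and for the 60S 0 to 1, 0 to 9 and -0.07 to 0.00. All genes called ranged from 1124 to 2551 higher and from 947 to 2588 lower. The summed level differed by -5.72% to -1.70%, the 40S sum by -5.02% to -1.13%, the 60S sum by -6.14% to -2.00%, the ratio by 0.00492 to 0.00873 and AGRN by -1.49 to -1.41. Depth is no limit for the members, whose rows hold at least 1196 reads in each library. The 3 libraries per group and their spread set the width of the intervals.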

Other observations

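Rows that share sequence with the members were listed too. Of 42 listed ribosomal protein pseudogenes 41 were tested, and 1 was higher and 1 lower in limma. That is 2.44% each, beside 15.2% higher and 13.5% lower of all tested genes. Together the 42 had a summed mean level of 224 scaled CPM, with RPL9P9 the highest at 42.1. RPL23AP82 was higher with the agrin siRNA (6.15 ± 0.164 against 9.06 ± 0.829, SD, n = 3 each; log2 fold change 0.52, limma adjusted p = 0.00136), and RPL32P29 was lower (14.7 ± 0.172 against 11.9 ± 1.47; -0.30, adjusted p = 0.0286). RPL32P29 overlaps the gene of the member RPS29. How many reads of these pseudogenes came from the parent messages was not tested.

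The readthrough gene RPL17-C18orf32 was listed at a control mean of 519 beside 500.1 for RPL17. RPL36A-HNRNPH2 was at 181 beside 153 for RPL36A, and RPS10-NUDT3 at 231 beside 201 for RPS10. The levels of these pairs are close, so the readthrough rows are not counted here as separate measurements. None of the 3 passed the test (adjusted p = 0.432, 0.115 and 0.826).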
